A study of Mus musculus with 2 samples.

Results

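The major histocompatibility complex of the mouse, also called H2, was examined on a methylated DNA tiling array as the genomic probes that start between 34.05 and 35.63 Mb of chromosome 17 in the mm9 build. The window held 756 of 174638 genomic probes, in 90 of 22170 tiled regions. It was divided by position into a class II part (34.05 to 34.55 Mb, 29 regions, 252 probes), a class III part (34.55 to 35.36 Mb, 50 regions, 415 probes) and a class I part covering the H2-D and H2-Q side (35.36 to 35.63 Mb, 11 regions, 89 probes). A tiled region was a set of probes with starts less than 1000 bp apart. The limits are positions and use no measured value, but they were set with earlier results of these data known.

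The series held 2 arrays. One was of untreated mouse embryonic fibroblasts (MEFs), connective tissue cells of C57BL/6 embryos at stage E14.5, and the other of the same kind of cells after 2 days in medium with 100 µM thymidine. In both, cells with CD45, CD41, CD31 or c-Kit had been removed before culture on feeder MEFs stopped with mitomycin, and feeder DNA may therefore be part of either sample. The source label of the treated sample also names a sort on CD45, a blood cell surface protein, and its input is described as untreated in 1 label and as thymidine-treated in another. DNA pulled down with an antibody against 5-methylcytosine carried Cy5 and input DNA carried Cy3 on both arrays, so dyes were not swapped. With 1 array per condition no test was possible, and thymidine, slide, scan, sort and input origin cannot be told apart.

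Class I molecules present peptides from inside the cell to cytotoxic T cells and are made by most nucleated cells. Class II molecules present peptides taken up from outside to helper T cells and are made mainly by dedicated antigen-presenting cells, so that fibroblasts usually make them only after stimulation by interferon gamma. The class II part of the chromosome also carries genes for loading class I molecules, among them those for the peptide transporter Tap1 and the proteasome subunits Psmb8 and Psmb9. The class III part is gene-dense and codes for complement factors, the cytokines Tnf, Lta and Ltb, heat shock proteins and many genes with no immune role. The antibody binds methylated cytosine, which in fibroblasts lies almost only in CpG pairs, so a fragment with few CpGs can yield little precipitate however methylated it is.

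The sequence of the complex shows this range of CpG content, and the following promoters are printed for that reason, with each CpG in capitals. They were taken from RefSeq on the GRCm38.p6 build as the 250 bases before a gene's start. Their coordinates are not those of the array's build, no genome of that build was used here, and no probe was assigned to any of these genes. Of 38 genes listed for the complex 30 had an entry. The class I gene H2-K1 lies on the class II side, before the class II gene H2-Oa, and not with H2-D1. Whether the class II part of the window includes it was not settled, as the builds differ. The promoter of H2-Eb1, which codes for a class II beta chain (chr17:34305617-34305866, plus strand), had 0 CpGs, the H2-Aa promoter (chr17:34287824-34288073, minus strand) of a class II alpha chain had 3, the H2-K1 promoter (chr17:34000348-34000597, minus strand) of a classical class I heavy chain had 9, and the promoter of H2-DMa (chr17:34122582-34122831, plus strand), which helps to load class II molecules, had 27 at the more CpG-rich of its 2 listed starts.
H2-Eb1: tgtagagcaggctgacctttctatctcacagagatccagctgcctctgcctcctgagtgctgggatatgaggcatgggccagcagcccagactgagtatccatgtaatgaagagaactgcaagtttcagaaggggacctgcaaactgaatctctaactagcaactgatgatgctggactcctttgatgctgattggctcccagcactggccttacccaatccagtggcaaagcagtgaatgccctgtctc
H2-Aa: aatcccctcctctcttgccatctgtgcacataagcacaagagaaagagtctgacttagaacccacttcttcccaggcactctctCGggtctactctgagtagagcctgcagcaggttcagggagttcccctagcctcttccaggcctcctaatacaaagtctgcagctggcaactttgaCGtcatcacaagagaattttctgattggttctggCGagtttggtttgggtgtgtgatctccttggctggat
H2-K1: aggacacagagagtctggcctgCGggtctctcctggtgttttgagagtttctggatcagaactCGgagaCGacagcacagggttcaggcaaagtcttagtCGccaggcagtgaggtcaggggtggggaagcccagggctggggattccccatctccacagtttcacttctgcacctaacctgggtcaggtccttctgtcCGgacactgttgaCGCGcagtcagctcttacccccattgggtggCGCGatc
H2-DMa: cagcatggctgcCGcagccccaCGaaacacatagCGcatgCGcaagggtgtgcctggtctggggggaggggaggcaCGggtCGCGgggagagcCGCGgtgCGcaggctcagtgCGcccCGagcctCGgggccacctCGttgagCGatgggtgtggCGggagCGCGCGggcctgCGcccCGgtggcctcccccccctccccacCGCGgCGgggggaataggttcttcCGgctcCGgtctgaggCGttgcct

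Over the lists, the CpG count of the promoters had a median of 2 at 9 class II starts, 8.5 at 8 class I starts, 11 at the 4 antigen-processing genes Tap1, Tapbp, Psmb8 and Psmb9, and 12 at 12 class III starts, against 6 over the 32851 promoters of the table. The class II promoters other than H2-DMa at its CpG-rich start held between 0 and 3 CpGs. CpG, which reads the same on both strands, occurred at least once in 77.8% of the class II starts and in all starts of the other lists, against 92.1% of all promoters.

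Class I genes arose by duplication, and some of their promoters still share identical runs. A run as long as a probe, here 45 to 60 bases, could not be told apart by it. Of 21 pairs among 7 class I promoters, 2 pairs shared a run of at least 45 bases. The longest, of 66 bases, was common to H2-Q6 and H2-Q7, and the next, of 47 bases, to H2-K1 and H2-D1. Both runs are printed as the longest that any of these pairs share, and the other pairs share none of probe length. Neither run holds a CpG, and the shorter could hold only the shorter probes. Whether any probe of the window lies in such a run was not tested, since no probe sequence was used, so a class I value may belong to several genes. Some class I regions do repeat each other in probe spacing, as given below.
H2-Q6 and H2-Q7: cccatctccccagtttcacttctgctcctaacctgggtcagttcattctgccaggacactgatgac
H2-K1 and H2-D1: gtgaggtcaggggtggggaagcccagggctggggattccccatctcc

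The complex was well measured. The input signal was well above background on both arrays, with no outlier flag, at 686 of the 756 probes (90.7%), against 81.6% of all probes, and all 90 regions kept at least 3 probes, with a median of 7. The precipitate was also well above background on both arrays at 86.6% of the kept probes, against 82.8% over the whole array. No probe of the window was saturated, and its probes were spread from row 1 to row 1062 of the 1064 rows of the array. The median raw input signal of the kept probes was 16.0 times the local background for untreated and 17.1 times for treated cells, and that of the precipitate 9.30 and 7.94 times. Values below are log2 ratios of precipitate to input, centred on the median of each array, so that 0 is the middle of all kept probes. In DNA from many cells, partial methylation in every cell and full methylation in some of them cannot be told apart.

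The class II and class III parts had the middle ratio of the array, and the class I part had a lower one on both arrays. The class II median over 229 probes was -0.03 in untreated and 0.06 in treated cells, with the middle 50% of probes between -0.53 and 0.41 and between -0.44 and 0.50. Over the 372 class III probes the medians were -0.03 and 0.01, with quartiles of -0.56 and 0.44 in untreated and -0.39 and 0.46 in treated cells. The 85 class I probes had medians of -0.24 and -0.26, with quartiles of -1.07 and 0.36 and of -0.85 and 0.30. Their quartiles overlap those of all probes, which ran from -0.58 to 0.46 and from -0.49 to 0.47. The lower class I level was not shared by all its regions. Averaged over both arrays, the class I region medians ran from -1.03 to 0.53. The lowest belonged to neighbouring regions that may not be separate observations, and no class I median was computed without them. The 6400 probes of the rest of chromosome 17 had medians of -0.00052 and -0.0048.

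**Figure D1:**
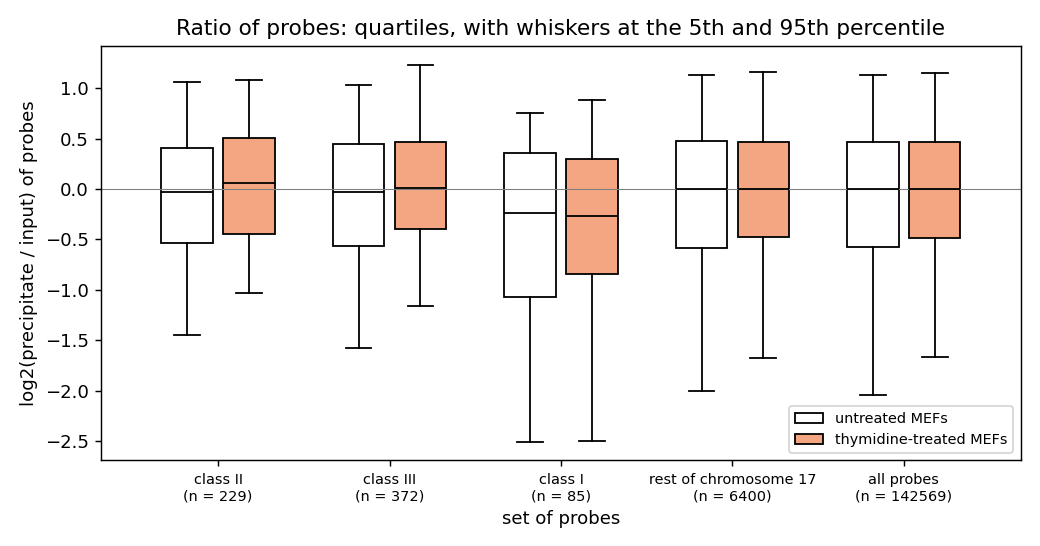
Log2 ratio of precipitate to input over probes, for the 3 parts of the complex, the rest of chromosome 17 and all probes, with untreated cells in white and thymidine-treated cells in orange. Boxes give quartiles and median and whiskers the 5th and 95th percentile; the class I boxes lie lowest, with medians of -0.24 and -0.26, and overlap all others.

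The lower class I level came with more probes of low ratio and fewer of high ratio. A ratio of -1 or less, which is at most 0.5 times the middle ratio, was found at 23 of 85 class I probes (27.1%) in untreated and 18 (21.2%) in treated cells, against 15.0% and 11.3% of all probes. Of these, 17 were low on both arrays. Many of the low probes lay in neighbouring regions near the end of the window, given below, which may not be separate observations. A ratio of at least 1 was found at 1 class I probe in untreated and 2 in treated cells (1.18% and 2.35%, against 7.17% and 7.60% of all probes). The class II part had 10.9% and 6.11% of probes at or below -1, and the class III part 13.2% and 6.72%. Not every low probe was measured in both channels. Of the 21 class I probes with a mean ratio over the arrays of -1 or less, 9 had a precipitate well above background on both.

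The level of the class I part did not rest on those dim probes. Over the 71 class I probes with both channels well above background on both arrays, the median lay 0.24 below that of all such probes in untreated cells, a difference of -0.239, and differed by -0.215 in treated cells. Before this filter the differences were -0.238 and -0.265. In the authors' deposited table the class I median differed from that of all kept probes by -0.12 in untreated and by -0.27 in treated cells. Its values have a narrower scale, with slopes against the ratios used here of 0.458 for untreated and 0.49 for treated cells. The sizes of these gaps therefore cannot be set beside those above. Without the filter on dim inputs the gaps were -0.16 and -0.22, and with normexp background correction -0.17 and -0.20. The median log2 input signal of the class I probes stood 0.40 above that of all probes before and 0.51 after thymidine, while the precipitate was at -0.10 and 0.04. The class II input was likewise 0.42 and 0.36 above that of all probes, with a precipitate 0.33 and 0.30 above. What part probe sequence and cross-hybridisation among class I copies have in these levels was not tested.

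Within the class I part the lowest region ratios lay near the end of the window, in neighbouring regions that partly repeat each other in probe spacing. In order of position, the region from 35372247 to 35373928 had medians of 0.47 before and 0.59 after thymidine, and that from 35377393 to 35380099 had -0.32 and -0.54. The region from 35398830 to 35400429 had 0.44 and 0.48, and its neighbour from 35401433 to 35403205 had -0.29 and -0.37. Regions of higher and lower ratio thus alternated over this stretch, alike on both arrays. The regions starting at 35456215 and 35477979 had -0.12 and -0.08, and -0.52 and -0.38. That at 35515327 was at 0.24 and 0.16.

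The next 3 regions were the lowest of the class I part. The region from 35529748 to 35531465 had -0.78 in untreated and -0.81 in treated cells, with 8 probes from -2.51 to 0.64 and from -1.98 to 0.59. The region from 35560492 to 35562216 had -1.20 and -0.85, with 8 probes from -3.02 to 0.61 and from -2.74 to 0.58. The region from 35574811 to 35576560 had -0.95 and -0.82, with 8 probes from -2.83 to 0.48 and from -2.86 to 0.48. Each thus held probes both far below and above the middle of the array. The last probes of the 3 regions had the same lengths, almost the same spacing and similar ratios. In untreated cells these probes read -0.92, -1.25, 0.64, 0.08 and -1.48 in the first region. They read -1.11, -1.29, 0.61, 0.14 and -1.72 in the second and -0.82, -1.07, 0.48, 0.09 and -1.68 in the third. Whether the 3 regions read copies of the same sequence was not tested, so they may not be separate observations. By mean level they ranked 1276, 868 and 1087 from the bottom of 21518 regions, so many regions elsewhere were lower. Over the probes with both channels measured (7, 6 and 6 of 8) the medians were -0.64 and -0.65, -0.86 and -0.72, and -0.71 and -0.66. The last class I region, from 35605803 to 35607336, was back at -0.15 and -0.26.

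**Figure D2:**
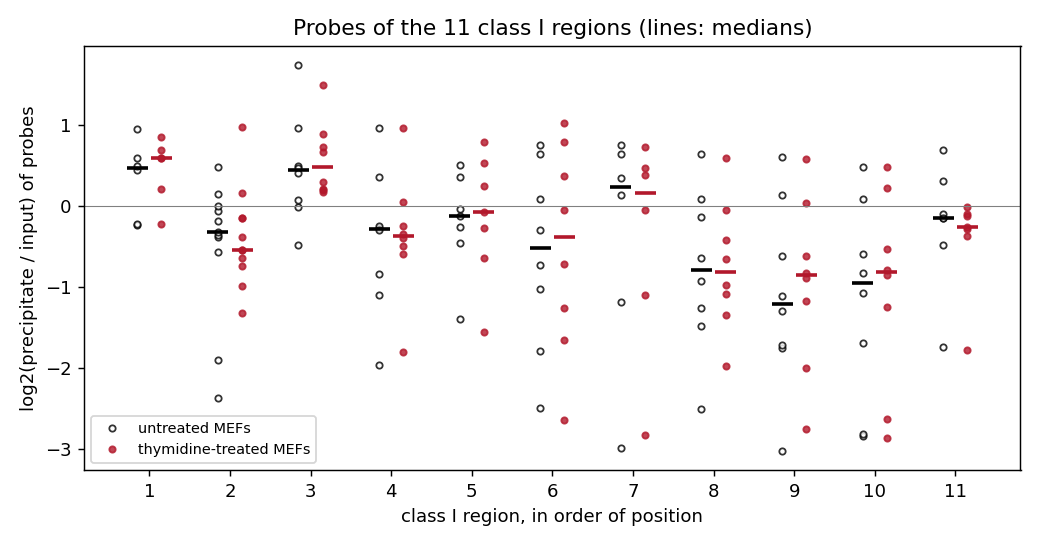
Log2 ratio of precipitate to input of each kept probe (vertical axis) in the 11 class I regions in order of position (horizontal axis), in untreated (open) and thymidine-treated cells (red), with a line at each median. The 8th to the 10th region lie lowest, with probes from 0.64 down to -3.02 in untreated cells.

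At single probes in the lowest of these regions, the spread within a region was larger than the difference between the arrays. In order of position the 8 probes of the region from 35560492 to 35562216 read -1.75, -0.61, -3.02, -1.11, -1.29, 0.61, 0.14 and -1.72 in untreated cells. In treated cells the same probes had -1.99, -0.61, -2.74, -0.88, -0.82, 0.04, 0.58 and -1.17. The order of the probes was thus much the same on both arrays, with the same 3 probes lowest. The precipitate of the lowest probe was not well above background on either array.

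The class III part held both the highest and the lowest region of the whole complex. The highest, from 35338457 to 35340122, had a median ratio of 0.89 before and 1.20 after thymidine and ranked 18 of 21518 regions from the top by mean level. Its 7 kept probes ran from -1.63 to 1.63 before and from -1.16 to 1.80 after thymidine, and 6 of the 7 were higher in treated cells. The probe at -1.63 had no precipitate well above background on either array. The next highest class III regions, from 35270986 to 35272985 and from 34986084 to 34988277, had 0.71 and 0.59, and 0.61 and 0.60.

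The lowest class III region, from 35226034 to 35226710, had median ratios of -1.62 and -0.64, but it rested on 3 kept probes. These read -1.72, -0.08 and -1.62 in untreated and -0.64, -0.48 and -1.44 in treated cells. Their median difference was only 0.18. The probe at -1.72 had no precipitate well above background on either array, and the other 2 had medians of -0.85 and -0.96. The region from 34653813 to 34655535 had -0.79 on both arrays over 8 probes. The region from 34700229 to 34701519 had -0.78 and -0.53 over 5 probes. Over the whole complex 2 regions had a mean level of -1 or less (2.22%, against 4.22% of all regions) and 1 had a level of at least 1 (1.11%, against 0.116%).

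The class II part had the narrowest range of mean region levels, from -0.58 to 0.91. Its highest region, from 34065563 to 34067172, had 0.84 and 0.98 over 6 probes and ranked 70 from the top. Over its 5 probes with both channels measured the medians were 1.19 and 1.43. The regions from 34441640 to 34443089 (0.28 and 0.62) and from 34167688 to 34169793 (0.31 and 0.46) followed. The lowest were those from 34481187 to 34482725 (-0.63 and -0.53), from 34288870 to 34290448 (-0.78 and -0.37) and from 34534476 to 34536218 (-0.34 and -0.28). The first of these 3 was at 0.09 and 0.06 over its 4 of 8 probes measured in both channels. That filter acts on the precipitate and so tends to leave out probes of low ratio. The higher median therefore cannot show whether the low level was real. The third was at 0.06 and -0.20 over its 5 probes measured in both channels, and the second at -0.64 and -0.30 over 4. No class II region had a mean level beyond 1 in either direction.

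**Figure D3:**
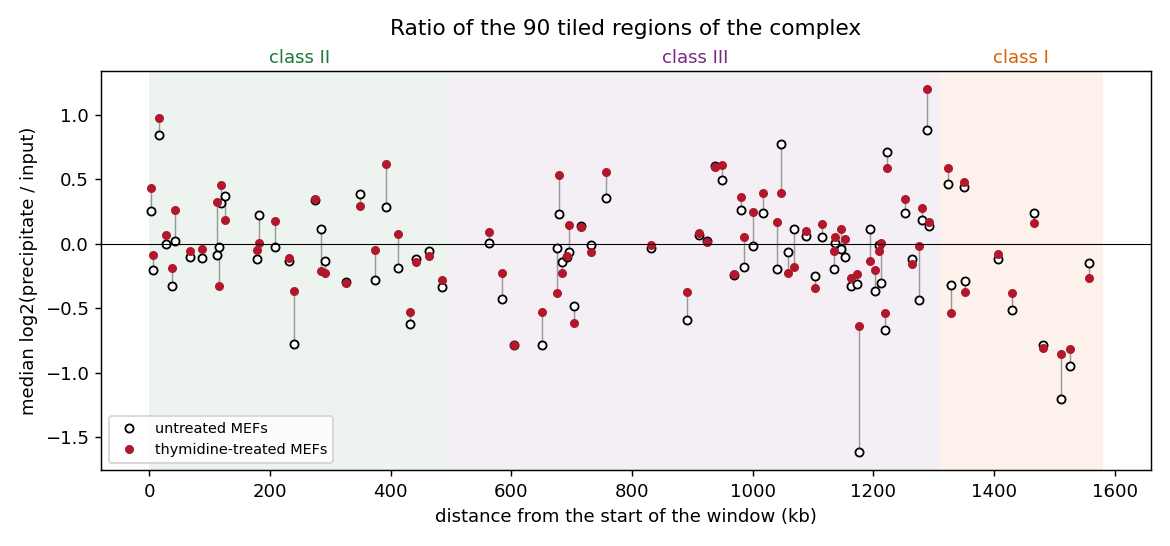
Median log2 ratio of precipitate to input (vertical axis) of the 90 tiled regions against distance from the start of the window in kb, for untreated (open) and thymidine-treated cells (red), joined by a grey line per region. Most regions lie between -1 and 1, and both arrays give nearly the same profile along the complex.

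The profile along the complex was shared by the arrays. Across the 686 probes the 2 arrays correlated at r = 0.92, against 0.93 over all probes, and across the 90 regions at r = 0.88, against 0.91. These points are probes and regions of the same 2 samples, read with the same probe sequences, and not replicates. Neighbouring probes were less alike than elsewhere. Over 480 pairs of neighbouring probes with starts under 300 bp apart the ratios correlated at r = 0.11 on each array, against 0.22 over the 94190 such pairs of the whole array, and within the class II part at 0.05 over 167 pairs. Fragments of 200 to 1000 bp can span such a pair.

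The second question was whether the ratio differed in thymidine-treated cells. No region of the complex met the rule for a difference. To be counted, a region needed a median change of 0.5 or more, shared in sign by 80% of its probes or more, and 0 of 90 regions were higher and 0 lower, where 0.706% and 0.0558% of all 21518 regions met it. At these shares fewer than 1 region of 90 would be counted, so the count of 0 says little about the complex. The region differences, treated minus untreated, ran from -0.28 to 0.44 with an SD of 0.14 over regions, against 0.17 over all regions.

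The differences were mostly small and above 0. The median difference was 0.10 over the class II probes (SD over probes 0.31), 0.14 over the class III probes (SD 0.33) and 0.03 over the class I probes (SD 0.35), where that of all probes was 0.07 (SD 0.36). Repeated spots of 19 control probes had a median SD of 0.14 for the same difference, which is the spread within an array only. A difference above 0 was found at 138 of 229 class II, 239 of 372 class III and 48 of 85 class I probes, or 60.3%, 64.2% and 56.5%, against 57.5% of all probes. By region, 72 of 90 (80%) had a median difference above 0, against 65.1% of all regions. At least 80% of probes were higher in 19 regions (21.1%, against 15.9%) and lower in 2 (2.22%, against 4.93%). Of the 19 regions, 14 were in the class III part (28.0% of its regions), 5 in the class II part (17.2%, near the share of all regions) and 0 in the class I part, which has only 11 regions.

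That direction depended on the scaling. With the arrays brought to one distribution by quantile normalisation, 57 of the 90 regions were above 0 and the class II, class III and class I medians were 0.04, 0.05 and -0.11, with a median of 0.00 over all probes. By the authors' deposited table, only 38 of 90 regions were above 0, and the medians were -0.03, -0.01 and -0.09, with -0.05 over all kept probes. Relative to the median of all probes, the class III part was higher in each of the 9 settings compared, by 0.02 to 0.08. The class II part was higher in 7 of 9 and the class I part in 2 of 9. All settings process the same arrays again, so they are not independent. They include the precipitate channel alone, which is no ratio, and the authors' table with its narrower scale.

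**Figure D4:**
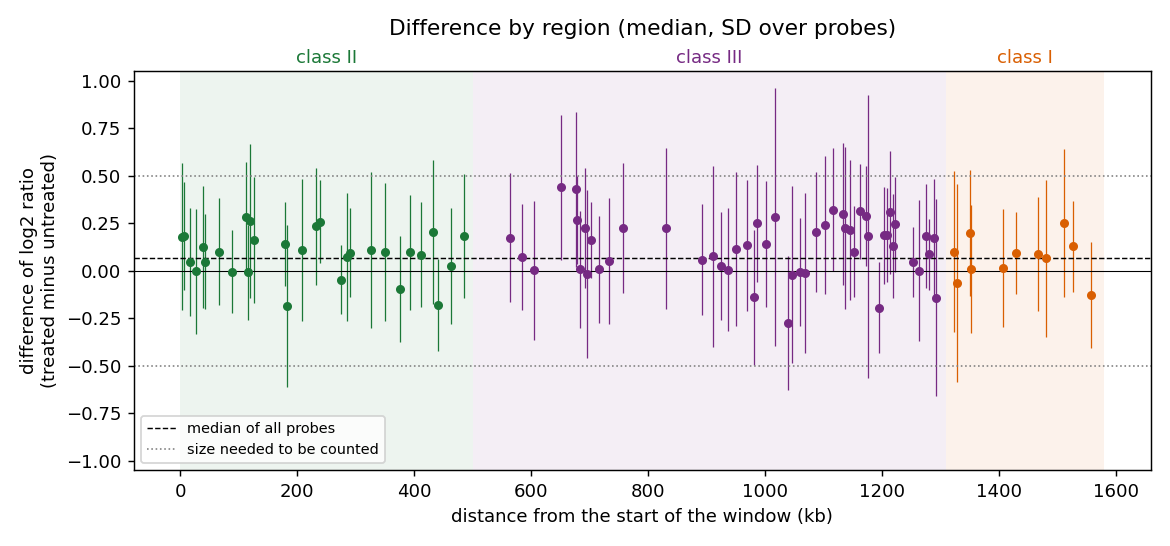
Difference of the log2 ratio, treated minus untreated (vertical axis), for each region against distance from the start of the window in kb, with bars for the SD over probes. The dashed line is the median of all probes, 0.07, and the dotted lines mark the size of 0.5 that no region of the complex reached.

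The 2 highest region differences of the complex lay in the class III part, each with 4 of 5 probes higher in treated cells. The region from 34700229 to 34701519 differed by 0.44 (SD over 5 probes 0.38). In order of position its probes read -0.97, -1.77, -0.78, 0.40 and -0.36 in untreated and -0.53, -1.15, -0.28, 0.43 and -0.66 in treated cells. The last probe thus went the other way. The precipitate channel alone had a median difference of -0.17 there and the input -0.19, so the ratio was higher without more precipitate signal. The region from 34725456 to 34727137 differed by 0.43 (SD over 5 probes 0.41), with 0.15 in the precipitate and -0.09 in the input. In this second region the median over probes nevertheless went from -0.03 in untreated to -0.38 in treated cells, since the probe at 0.04 in untreated cells was the 1 that was lower, at -0.41. The median of 5 probes is thus no safe guide to direction there. The regions ranked 421 and 460 of 21518 from the top. In the authors' deposited table the median difference over probes was 0.26 in each of these regions.

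In the class II part the highest differences among regions with 80% of probes of one sign were 0.26 in the region from 34288870 to 34290448 (SD 0.22, 5 of 5 probes higher) and 0.26 in that from 34167688 to 34169793 (SD 0.41, 8 of 9 higher). In the first, the input differed by -0.37 and the precipitate by -0.00. In the second, the input differed by -0.04 and the precipitate by 0.13. Both differences were smaller than the median scanner error of a single probe, 0.31 in each region.

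Regions that were lower in treated cells were few. The region from 35088919 to 35090554 in the class III part differed by -0.28 (SD 0.35), with 4 of 5 probes lower, an input difference of 0.22 and a precipitate difference of -0.07. Here too the region medians went the other way, from -0.19 to 0.17. The region from 34490676 to 34492134 in the class II part differed by -0.18 (SD 0.24), with 5 of 6 probes lower, and here the precipitate carried the difference, at -0.17 against -0.02 in the input. In the class I part the lowest difference was -0.13 (SD 0.28) in its last region, from 35605803 to 35607336, with 5 of 7 probes lower.

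At single probes, 5 of 686 were higher by at least 1, which is 2-fold, and 0 were lower by as much, where 1.07% and 0.0926% of all probes were. Of the 5, 4 lay in the class III part and 1 in the class I part. None of the 5 had a precipitate well above background on either array, so the sizes are uncertain. The highest was the probe from 35067839 to 35067898, at -2.63 and -1.02. The scanner software's own error of that difference was 0.89.

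More than 2 scanner errors separated the arrays at 26 probes of the complex, 21 higher and 5 lower in treated cells. Together these are 3.79% of the kept probes, against 2.95% of all probes, of which 1.83% were higher and 1.12% lower. All 26 had a precipitate well above background on both arrays. In the class I part 7 of 85 probes were among them, 4 higher and 3 lower. The highest and the lowest difference among the 7 belonged to the probes from 35380055 to 35380099, at -1.90 before and -0.98 after thymidine, and from 35606968 to 35607012, at 0.69 and -0.01. The former is next to another of the 7, from 35379837 to 35379881, whose ratio was lower in treated cells, at -0.00 and -0.64. Adjacent probes thus went opposite ways.

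The channels contributed differently in the 3 parts. The input was lower in treated cells in 22 of 29 class II regions (75.9%), 31 of 50 class III regions (62.0%) and 4 of 11 class I regions, against 49.2% of all regions. The precipitate was higher in 11 of 29, 32 of 50 and 7 of 11, against 50.01% of all regions. Over probes the median input difference was -0.04 in the class II part, -0.06 in the class III part and 0.03 in the class I part, and the median precipitate difference -0.02, 0.02 and 0.03. The class II precipitate was thus not above the middle of the array, while the median ratio difference was 0.10 against 0.07 over all probes. Each channel was centred on its own median, and the source of the difference was not tested.

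**Figure D5:**
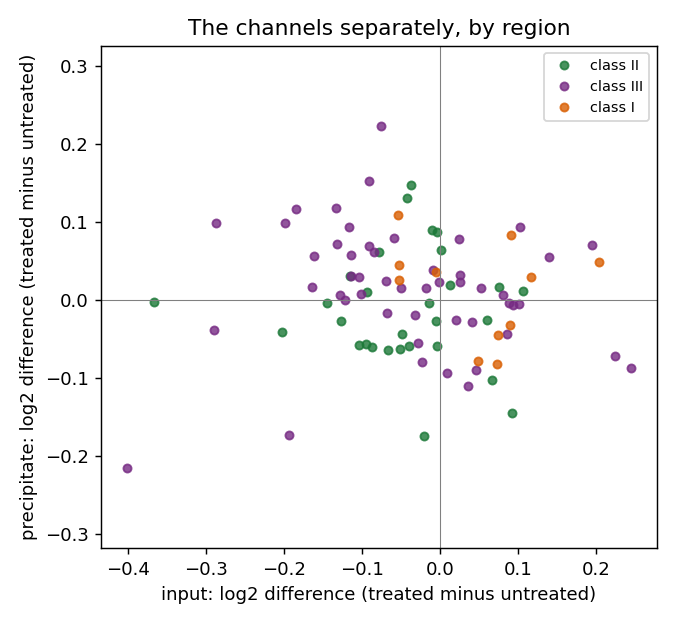
Median difference of the precipitate signal (vertical axis) against that of the input signal (horizontal axis), treated minus untreated on the log2 scale, for each region, coloured by part. Of the class II points 22 of 29 lie left of 0 and 11 of 29 above 0, and class I points lie between -0.05 and 0.20 on the input axis.

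Levels differed between neighbouring regions at the limits of the window. The last region before it, from 34045092 to 34047214, had ratios of 0.05 and -0.23, and the first inside, from 34051982 to 34053457, had 0.25 and 0.43. The last region inside, from 35605803 to 35607336, had -0.15 and -0.26, and the first after the window, from 35641689 to 35643438, had 0.37 and 0.25. Between the parts, the last class II and first class III regions had -0.34 and -0.28, and 0.00 and 0.09 in untreated and treated cells. The last class III and first class I regions had 0.14 and 0.17, and 0.47 and 0.59. The class I level depended on these limits. With each moved inwards by 50 kb its medians were -0.61 and -0.64, where those of the class II part were -0.04 and 0.07 and those of the class III part -0.05 and -0.01. The lowest class I regions, with the repeated probe spacing, stayed inside the narrower limits.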

How the data were processed

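The data were 2 two-colour arrays of methylated DNA immunoprecipitation, scanned spots being quantified by Agilent's Feature Extraction (11.0.1.1) against an mm9 design, per the file headers. The deposited intensity values are processed signals, background-subtracted and scaled by a linear dye factor per the file headers, and raw medians of spots and local background. The deposited log10 ratio is that of the processed Cy5 to Cy3 signals, and its error, used here as a score of precision, is the scanner software's own per the file headers. The authors' deposited table holds log ratios taken as log2 values, with column medians of -0.01 and -0.02; no source used here states their log base, normalisation or smoothing.

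From the processed signals log2(Cy5/Cy3) had the median of each array's kept probes subtracted, without loess or quantile normalisation. Control spots were left out. Probes were kept with the input well above background on both arrays and no outlier flag (142569 probes). Regions needed 3 kept probes. Single channels were centred likewise. Alternatives used limma 3.58.1 for normexp (offset 50) and loess. Simulated regions with known shifts were used to check the counting rule. No p-value was computed, since 1 array per condition leaves no residual degrees of freedom, and the number of arrays limits the precision.

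The window, its parts, the rules and the gene list were chosen with earlier results of these data known. Named regions are, in each part, 3 regions from each end of the ranking by mean level and, where 80% of probes share a sign, 2 from each end of the ranking by difference. All class I regions are given, and that choice, like that of single probes and printed promoters, was made after values were seen. Gene names could not be assigned to probes and no probe sequence was used.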

Additional observations from a re-analysis of the deposited data

How the results depend on the processing

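No region of the complex was counted as higher or lower under any of the 11 alternatives that recount regions, among them regions split at gaps of 500 or 2000 bp and all probes of 1 sign. The last is stricter than the main rule, so its count could not differ. Over the whole array the alternatives counted from 0 to 154 regions as higher and from 3 to 36 as lower, of 20139 to 21986. Counts of 0 in the complex therefore say little. The sign of the median difference was not stable. In the authors' deposited table it was below 0 over the complex (-0.03), the class II part (-0.03) and the class I part (-0.09), and class I was at -0.11 with quantile normalisation. The class I median difference was -0.12 with the trend of the difference with ratio level removed, against 0.03 before. In the authors' deposited table, which has a narrower scale, the class III median difference was -0.014 and the class I ratio of untreated cells -0.11. With the limits moved inwards by 50 kb, which leaves fewer class I regions but keeps the lowest ones, the class I ratio was -0.61 before and -0.64 after thymidine. The cause of the changes in the authors' table was not tested. No paired analysis was possible because each condition had 1 array, and for the same reason no array could be left out. Many low ratios rest on a precipitate not well above background, which limits their size.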
